A study of Mus musculus with 4 samples.

Results

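Acetylation of histone H3 was examined at the promoters of the clustered, replication-dependent histone genes in mouse left ventricle. Members were found by gene symbol among the RefSeq transcripts of a promoter count table: 63 by their current symbol (H1f1 to H1f6, and H2ac, H2bc, H3c or H4c followed by a number) and 4 by the older Hist symbol (H2bu2, H2aw, H4bc24 and H4f16). They made up 67 of 23631 genes, and all 67 had a mean count of at least 10, as did 22835 genes in all. By class, 6 encode the linker histone H1, 18 encode H2A, 18 encode H2B, 12 encode H3 and 13 encode H4. H4bc24 was counted with H2B because its older symbol is Hist1h2br. By location, 54 lie in the Hist1 cluster on chromosome 13, 10 in Hist2 on chromosome 3, 2 in Hist3 on chromosome 11 and 1, H4f16, at Hist4 on chromosome 6. H1f10 fits the letters of the H1 symbols but is a replication-independent linker histone, and it was placed with the replacement histones.

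Histone H2A, H2B, H3 and H4 form the protein core around which DNA is wound, and H1 binds the linker DNA between cores. The clustered genes supply most of these proteins while DNA is copied: their transcription depends on the co-activator NPAT, their mRNAs end in a stem-loop bound by SLBP instead of a poly(A) tail, and neighbouring H2A and H2B genes often run in opposite directions from a shared promoter. Most adult cardiomyocytes have left the cell cycle and rely more on replacement histones, which are made outside S phase. Acetylated H3 at a promoter is a mark of open, active chromatin, and histone deacetylases remove it.

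The study crossed pressure overload with deacetylase inhibition in male C57BL6 mice of 10 to 12 weeks. Transverse aortic constriction (TAC), which narrows the aorta and makes the left ventricle pump against a higher pressure, was compared with sham surgery. Trichostatin A (TSA), a deacetylase inhibitor dissolved in DMSO, was compared with DMSO alone (Veh), given under the skin in 2 injections a day for 4 weeks at 0.6 mg/kg per day. The chromatin came from whole left ventricle and was precipitated with an antibody to acetylated histone H3. The 4 groups were thus Sham Veh (sham surgery and DMSO), Sham TSA (sham surgery and TSA), TAC Veh (constriction and DMSO) and TAC TSA (constriction and TSA), all animals having had surgery and DMSO injections. Each group was 1 library, and whether a library pooled several hearts is not stated in its labels. An earlier deposit is cited in the labels of the Sham Veh and Sham TSA samples alone, so surgery and deposit cannot be told apart.

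Depth differed between the libraries, with 4895710 counts over the genes in TAC TSA, 6341854 in TAC Veh, 6864998 in Sham Veh and 7067361 in Sham TSA. All 10 cardiomyocyte markers examined had acetylated promoters, with medians of 367, 446, 264 and 447.5 scaled counts in the order Sham Veh, Sham TSA, TAC Veh, TAC TSA. A scaled count is the read count of a promoter divided by the library's relative size (trimmed mean of M-values). Promoters of olfactory and vomeronasal receptors, which the heart does not use, held shares of 0.422%, 0.428%, 0.507% and 0.68% of the counts over genes in those 4 libraries (exact binomial 95% intervals 0.417 to 0.427, 0.423 to 0.433, 0.502 to 0.513 and 0.673 to 0.687). With no replicate, intervals on ratios below are exact 95% intervals that cover counting error only. They describe 2 libraries, not 2 conditions, and assume that each read is a separate molecule, which PCR products with no molecular identifier need not be.

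Promoter sequences were available for 62 of the 67 members in the RefSeq set of build GRCm38.p6, which takes 250 bases before to 50 after the start. The CCAAT box, to which the factor NF-Y binds, was written in 85.5% of the 62 promoters against 37.4% of all 32851 promoters of that length. It was in every H1, H2A, H2B and H3 promoter (50 of these) but in 25% of the 12 H4 promoters. The octamer ATTTGCAT, read by OCT1 at H2B genes, was in 38.9% of H2A and 37.5% of H2B promoters, in none of the other classes, and in 1.74% of all promoters. A TATAAA box was in 56.5% of members against 13.6% of all promoters, and a GC box (GGGCGG) in 37.1% against 35.7%, with the highest share among H4 promoters, at 75%. An E2F site in any of the forms TTTCCCGC, TTTCGCGC, TTTGCCGC and TTTGGCGC was in 16.1% of members against 2.26% of all promoters. Both strands were searched for every motif, so a site where the promoters of neighbouring H2A and H2B genes overlap counted for both. A match describes letters, not binding. Members had a median of 45.3% G and C and 11 CpG dinucleotides, against 52.7% and 7 in all promoters.

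Promoters of 3 classes are shown as examples, each with one of the higher levels of its class. They are the 160 bases before the start of H2ac20 (chr3:96220881-96221040, minus strand), H1f2 (chr13:23738647-23738806, plus strand) and H4f16 (chr6:136804432-136804591, minus strand), all in GRCm38.p6 and read 5′ to 3′ along the gene. Capitals mark the motifs above on either strand.
H2ac20: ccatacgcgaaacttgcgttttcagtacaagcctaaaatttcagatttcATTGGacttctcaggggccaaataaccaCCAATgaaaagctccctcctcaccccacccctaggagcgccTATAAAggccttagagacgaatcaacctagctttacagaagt
H1f2: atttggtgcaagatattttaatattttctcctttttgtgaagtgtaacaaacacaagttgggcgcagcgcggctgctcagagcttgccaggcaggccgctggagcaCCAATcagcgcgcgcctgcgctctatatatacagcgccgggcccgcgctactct
H4f16: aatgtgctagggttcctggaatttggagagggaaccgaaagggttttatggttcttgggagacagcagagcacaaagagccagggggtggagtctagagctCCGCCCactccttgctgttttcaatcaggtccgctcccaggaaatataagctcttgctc
H4f16 has a GC box and no CCAAT box in this stretch, H1f2 has 1 CCAAT box, and H2ac20 has 2 and a TATAAA box.

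The next promoters are shown because the ratios below turn on them. H2bc7 (chr13:23574208-23574367, minus strand) and H2ac7 (chr13:23574221-23574380, plus strand) start 174 bases apart and run away from each other, so these are largely the same DNA read from either strand. H3c13 (chr3:96268494-96268653, plus strand) and H2bc18 (chr3:96269540-96269699, plus strand) start 1046 bases apart on the same strand, and H2bc18 holds an octamer.
H2bc7: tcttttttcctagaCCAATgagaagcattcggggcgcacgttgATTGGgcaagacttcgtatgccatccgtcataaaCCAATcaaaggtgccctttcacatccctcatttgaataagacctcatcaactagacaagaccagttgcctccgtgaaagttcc
H2ac7: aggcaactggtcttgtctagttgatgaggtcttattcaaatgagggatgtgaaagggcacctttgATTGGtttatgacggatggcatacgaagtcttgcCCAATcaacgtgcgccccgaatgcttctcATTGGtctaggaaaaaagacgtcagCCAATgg
H3c13: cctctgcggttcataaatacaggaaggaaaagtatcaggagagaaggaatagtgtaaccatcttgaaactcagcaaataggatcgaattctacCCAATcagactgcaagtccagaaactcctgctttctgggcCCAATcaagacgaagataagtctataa
H2bc18: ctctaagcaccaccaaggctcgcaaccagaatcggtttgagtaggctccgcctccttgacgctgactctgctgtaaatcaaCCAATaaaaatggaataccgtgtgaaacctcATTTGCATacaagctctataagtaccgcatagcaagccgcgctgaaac

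Levels in these libraries were near those of the average promoter. The median member had 229 (Veh) and 244.5 (TSA) scaled counts after sham surgery and 198 (Veh) and 189 (TSA) after TAC, beside 227, 229, 224 and 222.5 for all 22835 genes, and 30 of the 67 lay above the median gene. The counting window around each start is not given in the sources used here, so levels of different genes are compared as deposited. Among classes the H1 genes had the highest median in every library, 384 in Sham Veh. The lowest was that of H3 in Sham Veh, at 191, and in Sham TSA, at 218, and that of H2B in TAC Veh, at 187, and in TAC TSA, at 175. Members of the Hist2 cluster had a median of 565 in Sham Veh against 205 in Hist1, and 4 of the 10 Hist2 genes were among the highest 10% of all genes, as was 1 other member, H2aw of Hist3.

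**Figure D1:**
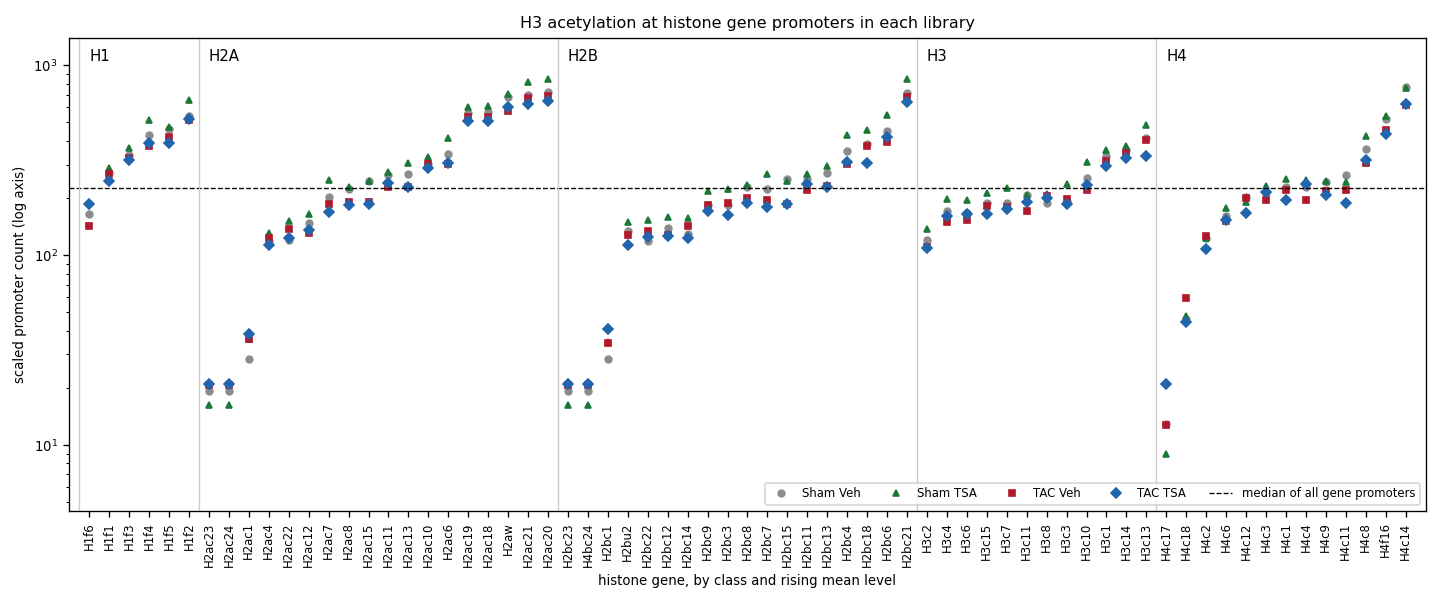
Scaled H3ac promoter count (log axis) of each of the 67 histone genes in the 4 libraries, ordered by class and rising mean, with the median of all gene promoters as a dashed line. Each symbol is 1 library; levels span from 9.0 (H4c17, Sham TSA) to 849 (H2bc21, Sham TSA), and the green triangles of Sham TSA are the top symbol at most genes.

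Levels within the H2A class ran from near the receptor promoters to the top of the genome. H2ac20, a core H2A gene of Hist2, had 722 (Veh) and 842 (TSA) scaled counts after sham surgery and 689 (Veh) and 648 (TSA) after TAC. It stood highest in Sham TSA and lowest in TAC TSA, and its mean was at percentile 96.9 of all genes. The lowest H2A genes, H2ac23 and H2ac24, had 19.3, 16.2, 20.6 and 21.0.

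Among H2B genes, H2bc21, the neighbour of H2ac20 and H2ac21, had 716, 849, 683 and 644 scaled counts in the order Sham Veh, Sham TSA, TAC Veh, TAC TSA. Its order of libraries was that of H2ac20, with which it may share reads (779 and 786 reads in Sham Veh). The testis forms of H2A and H2B, H2ac1 and H2bc1, which package chromatin in male germ cells, had between 28.5 and 40.8 scaled counts in all libraries, against receptor promoter medians of 15.6 to 27.2. The H2ac1 promoter (chr13:23934277-23934436, plus strand) is printed because it holds CCAAT boxes, a TATAAA box and an octamer at this low level.
H2ac1: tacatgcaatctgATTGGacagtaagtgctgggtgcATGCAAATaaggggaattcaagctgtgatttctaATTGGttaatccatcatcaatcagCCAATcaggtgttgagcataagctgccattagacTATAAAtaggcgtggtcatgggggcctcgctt

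H1f2, the highest linker histone gene, had 539 (Veh) and 654 (TSA) scaled counts after sham surgery and 515 (Veh) and 524 (TSA) after TAC. Sham TSA was the highest of the 4. H1f6, the linker histone of the testis and the lowest H1 gene, had 165, 189, 143 and 187, and both TSA libraries were above both vehicle libraries. H1f6 stood at percentile 43.5 of all genes, well above the testis genes H2ac1 and H2bc1 at percentile 12.7.

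The H3 genes ran from H3c2 at 120, 137, 110 and 109 scaled counts to H3c13 at 415, 485, 404 and 331 (in the order Sham Veh, Sham TSA, TAC Veh, TAC TSA). In both, Sham TSA was highest and TAC TSA lowest. The highest H4 gene, H4c14, had 773 (Veh) and 757 (TSA) after sham surgery and 617 (Veh) and 628 (TSA) after TAC, so that both sham libraries were above both TAC libraries. H4c17 was the lowest member of all, with 12.9, 9.0, 12.7 and 21.0, which is 14, 10, 13 and 17 reads.

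Several members cannot be separated from their neighbours. Among members with a promoter sequence, the H2A and H2B genes formed 10 head-to-head pairs whose starts lie 164 to 281 bases apart. Partners' counts differed by 0% to 9.5% in any library. H2bc7 had 242, 298, 198 and 145 reads in the order Sham Veh, Sham TSA, TAC Veh, TAC TSA, and H2ac7 had 221, 278, 190 and 136. Promoters this close overlap and can share reads, so partners are not independent measurements. The pair H3c3 and H2bc3, whose starts are 1213 bases apart, differed by up to 14.5%, and the pair H4c6 and H1f3, whose starts are 3364 bases apart, by up to 115.6%. H1f3 was the higher of the latter pair in every library.

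**Figure D2:**
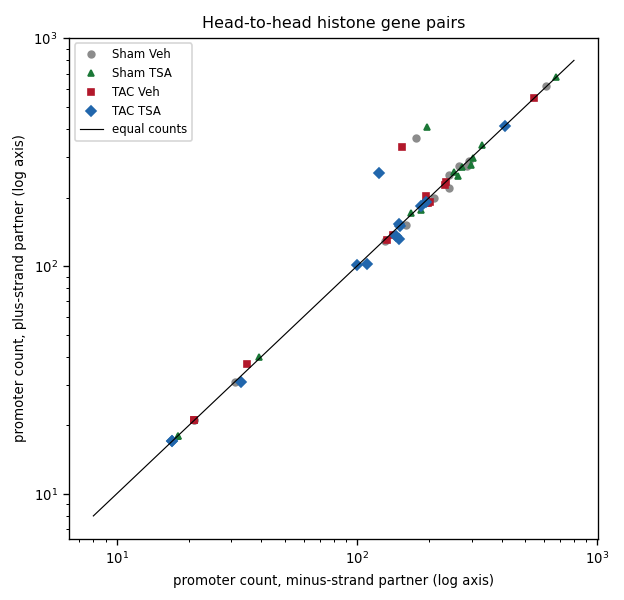
Read counts at the 2 promoters of each head-to-head histone gene pair, minus-strand partner on the x axis and plus-strand partner on the y axis (both log axes), 1 symbol per pair and library. The symbols follow the line of equal counts except those of H4c6 and H1f3, where the plus-strand gene H1f3 had 257 to 410 reads against 124 to 196.

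A repeated stretch of Hist1 holds near copies. H2bc23, H2ac23, H2ac24 and H4bc24 had the same counts in every library: 21 (Veh) and 18 (TSA) reads after sham surgery and 21 (Veh) and 17 (TSA) after TAC. The promoters of H2bc23 (chr13:21810200-21810359, minus strand) and H4bc24 (chr13:21833583-21833742, plus strand) are identical over all 300 bases, and their printed stretch is therefore given once. H4c17 (chr13:21811586-21811745, plus strand) and H4c18 (chr13:21832198-21832357, minus strand) match at 298 of 299 aligned bases, shifted by 1 base.
H2bc23: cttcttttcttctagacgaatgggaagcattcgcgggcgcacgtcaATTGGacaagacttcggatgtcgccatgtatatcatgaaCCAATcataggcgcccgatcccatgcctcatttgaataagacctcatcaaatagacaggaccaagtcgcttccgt
H4c17: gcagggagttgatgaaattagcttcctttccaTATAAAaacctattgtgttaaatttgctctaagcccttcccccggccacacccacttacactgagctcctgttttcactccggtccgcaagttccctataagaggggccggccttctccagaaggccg
H4c18: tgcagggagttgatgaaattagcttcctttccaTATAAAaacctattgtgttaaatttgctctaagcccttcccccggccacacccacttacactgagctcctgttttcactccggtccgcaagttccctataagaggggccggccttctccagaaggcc
Despite this match, H4c18 had 50, 53, 61 and 36 reads where H4c17 had 14, 10, 13 and 17. How reads that fit both copies were assigned is not given in the sources used here, so the levels of these 6 genes are uncertain. In Hist2, H2ac18 and H2ac19 match at 95.8% of 260 aligned bases, and their counts differed by at most 0.7%. The promoters of H3c14 and H3c15 match at 94.7% of bases, but H3c14 had 390, 418, 354 and 264 reads where H3c15 had 205, 236, 186 and 133. The doubt about how reads were assigned holds for these Hist2 genes too.

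Most histone genes had slightly higher scaled H3ac counts in the Sham TSA library than in Sham Veh. These counts give levels relative to other promoters, not absolute amounts. In Sham TSA over Sham Veh the median log2 ratio of members was 0.15, beside 0.01 for all genes. Of the members 58 of 67 were above 0, beside 11830 of 22835 genes. No member was apart, meaning at least 1.5-fold with an interval that leaves out a ratio of 1. Among all genes 0.582% were apart and higher, and 0.582% apart and lower. At any fold, 17 members had an interval above 1 and 0 had one below, against 5.2% and 3.81% of all genes. The medians were 0.24 for H2B, 0.19 for H3, 0.16 for H1, 0.13 for H2A and 0.05 for H4. All 12 H3 genes and all 6 H1 genes were above 0, as were 9 of 13 H4 genes.

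Among members of at least 50 mean counts, the ends of this range were held by an H2A-H2B pair and 2 H4 genes. H2bc22 had 119 (Veh) and 154 (TSA) scaled counts after sham surgery and 134 (Veh) and 125 (TSA) after TAC, and its ratio was 0.38 (0.04 to 0.72). Its head-to-head partner H2ac22 had 120, 151, 138 and 124, with a ratio of 0.33 (-0.01 to 0.67). Sham Veh was the lowest and Sham TSA the highest library at both. At the other end, H4c11 had 265.5 (Veh) and 244 (TSA) after sham surgery and 219 (Veh) and 188 (TSA) after TAC, a ratio of -0.12 (-0.37 to 0.12), and H4c12 had 201, 191.5, 199.8 and 167, a ratio of -0.07 (-0.35 to 0.21). H4c11 and H4c12 have promoters that match at 91.7% of bases. Next to these ends were H2ac7 at 0.30 (0.04 to 0.56) and H2bc15 at -0.04.

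After TAC, without TSA, histone genes lay slightly below the bulk of promoters. In TAC Veh over Sham Veh the members' median log2 ratio was -0.08, beside -0.001 for all genes, and 51 of 67 were below 0. No member was apart, where 1.93% of all genes were apart and higher and 0.582% apart and lower. Intervals lay below 1 at 10 members and above 1 at 0, against 7.2% and 5.82% of all genes. The count below 1 was 5 under scaling by total counts (5.64% of all genes), 6 with a loess curve through the ratios by count (6.1%) and 47 under receptor scaling (45.9%), where 2 members were apart and lower against 3.89% of all genes. Class medians ran from -0.13 in H4 to -0.07 in H2B, and all 10 genes of Hist2 were below 0.

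H2bc15 and its partner H2ac15 had the lowest ratios. H2bc15 had 253 (Veh) and 245 (TSA) scaled counts after sham surgery and 186 (Veh) and 185 (TSA) after TAC, and H2ac15 had 245, 246, 190 and 187. Both TAC libraries were below both sham libraries, and the ratios of TAC Veh over Sham Veh were -0.44 (-0.72 to -0.17) and -0.37 (-0.64 to -0.10). H4c14, whose levels stand above, had -0.32 (-0.48 to -0.17). The highest ratio among members of at least 50 mean counts was that of H4c18, at 0.38 (-0.18 to 0.95), followed by H2ac22 at 0.20 (-0.15 to 0.55) and H2bc22 at 0.18 (-0.18 to 0.54). All of those intervals include a ratio of 1, and scaled on receptor promoters H2ac22 was at -0.05 and H2bc22 at -0.07.

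Between TSA and vehicle after TAC, ratios at histone genes were near those of all genes. The median log2 ratio of TAC TSA over TAC Veh was -0.04, beside 0.001 for all genes, with 41 members below 0 and 26 above, and it was 0.025 when 1 member per run of neighbours was kept. No member was apart, although 4.06% of all genes were apart and higher and 0.342% apart and lower. Scaled on receptor promoters, the medians were -0.42 for members and -0.38 for all genes, and 8 members were apart and lower, against 14.4% of all genes. At any fold 1 member had an interval above 1 and 2 had one below, against 8.13% and 10.4% of all genes.

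The 1 above was the testis linker histone H1f6, with a ratio of 0.38 (0.05 to 0.72) from 143 scaled counts in TAC Veh and 187 in TAC TSA. H4c4 had 229, 248, 196 and 237 in the order Sham Veh, Sham TSA, TAC Veh, TAC TSA, a ratio of 0.28 (-0.02 to 0.57), and H3c11 had 207, 208.5, 170.5 and 192, a ratio of 0.17 (-0.15 to 0.49). TAC Veh was the lowest library at all 3 genes, but scaled on receptor promoters the ratios were -0.000, -0.11 and -0.22. The 2 below were neighbours in Hist2. H2bc18 had 385 (Veh) and 454 (TSA) after sham surgery and 377 (Veh) and 304 (TSA) after TAC, a ratio of -0.31 (-0.55 to -0.08). H3c13, whose levels stand above, had a ratio of -0.28 (-0.51 to -0.06). H4c18 had the lowest ratio, at -0.43 (-1.06 to 0.19), from 61 and 36 reads.

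**Figure D3:**
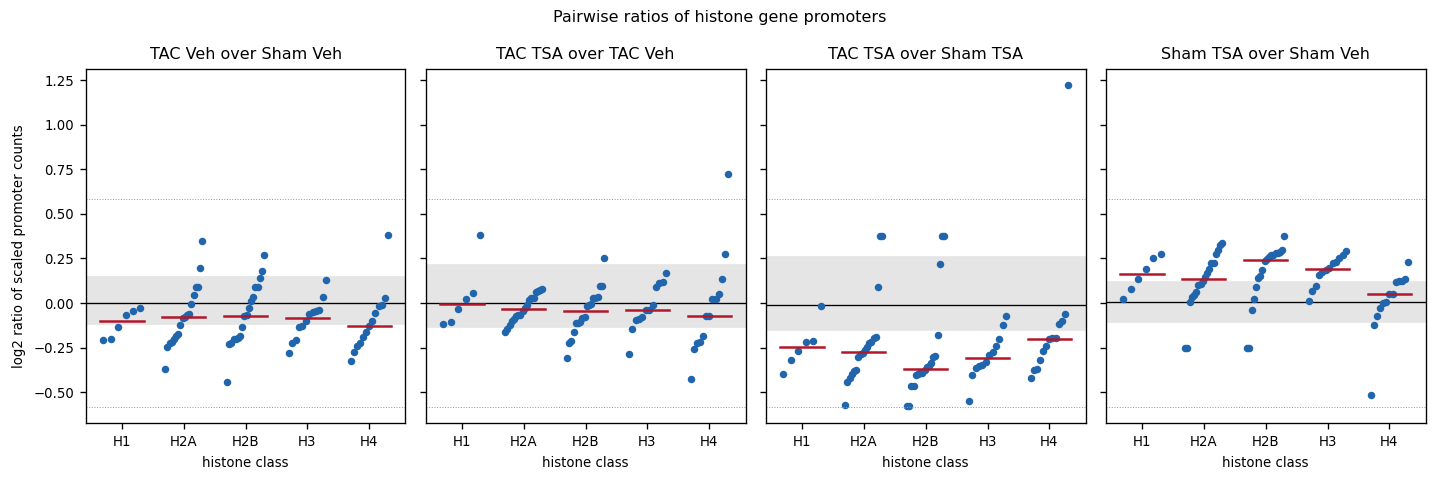
Log2 ratio of scaled promoter counts of the 67 histone genes (blue points) by class in the 4 pairwise comparisons, with the class median as a red line. The black line and grey band give the median and the middle 50% of all 22835 genes, and dotted lines mark 1.5-fold; class medians lie below the grey band in TAC TSA over Sham TSA and above it, except for H4, in Sham TSA over Sham Veh.

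The widest separation lay between the 2 libraries from TSA-treated mice. In TAC TSA over Sham TSA the median log2 ratio of members was -0.29, beside -0.01 for all genes, and 60 of 67 members were below 0. Of the members, 1 was apart and higher and 0 apart and lower, against 7.2% and 0.206% of all genes. Intervals lay below 1 at 35 members, against 13.8% of all genes, and above 1 at 1 member, against 10.3%. Class medians were -0.37 for H2B, -0.31 for H3, -0.27 for H2A, -0.25 for H1 and -0.20 for H4. All 12 H3 genes, all 6 H1 genes and all 10 Hist2 genes were below 0, with 9 of the 10 Hist2 intervals below 1. The middle 50% of the members lay between -0.38 and -0.20, where the middle 50% of all genes lay between -0.15 and 0.26. Scaled on receptor promoters, the medians were -0.89 for members and -0.61 for all genes, and 0 members were apart and higher and 60 apart and lower, against 0.447% and 52.6% of all genes.

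This comparison has a trend with depth of signal: low-count promoters had higher ratios than high-count promoters among all genes. With that trend removed by a loess curve, the members' median was -0.29 beside -0.01 for all genes, 66 of 67 members were below 0, and 36 had intervals below 1 against 6.03% of all genes. Without the loess curve, and with 1 member kept from each head-to-head set or set of near-identical promoters, 48 of 50 were below 0. Intervals lay below 1 at 28 of these 50, against 13.8% of all genes. Members without a promoter sequence, H2bc21 among them, could not be paired, and H3c13 and H2bc18 were both kept. Some of the 50 may therefore still share reads.

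H2bc7 and H2ac7, the pair printed above, had the lowest and the third lowest ratio. H2bc7 had 222 (Veh) and 268 (TSA) scaled counts after sham surgery and 194 (Veh) and 179 (TSA) after TAC, and H2ac7 had 203, 250, 186 and 168. Both followed the same order of libraries, and their ratios of TAC TSA over Sham TSA were -0.58 (-0.88 to -0.29) and -0.57 (-0.88 to -0.27). H2bc18 had -0.58 (-0.80 to -0.36) and H3c13 -0.55 (-0.77 to -0.34). H2bc7 thus lay just inside the 1.5-fold line.

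The only member apart was H4c17, at 1.23 (0.02 to 2.51) from 10 reads in Sham TSA and 17 in TAC TSA, and the loess curve removed that call. The other members with positive ratios were the 4 genes of identical counts and the testis genes H2ac1 and H2bc1. All 7 had fewer than 50 mean counts. Among members of at least 50 mean counts, the ratios nearest to 0 were those of H1f6 at -0.02 (-0.33 to 0.29), H4c4 at -0.06 (-0.34 to 0.21) and H3c8 at -0.07 (-0.37 to 0.22). H3c8, a core H3 gene, had 188, 210, 206 and 200 scaled counts in the 4 libraries.

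**Figure D4:**
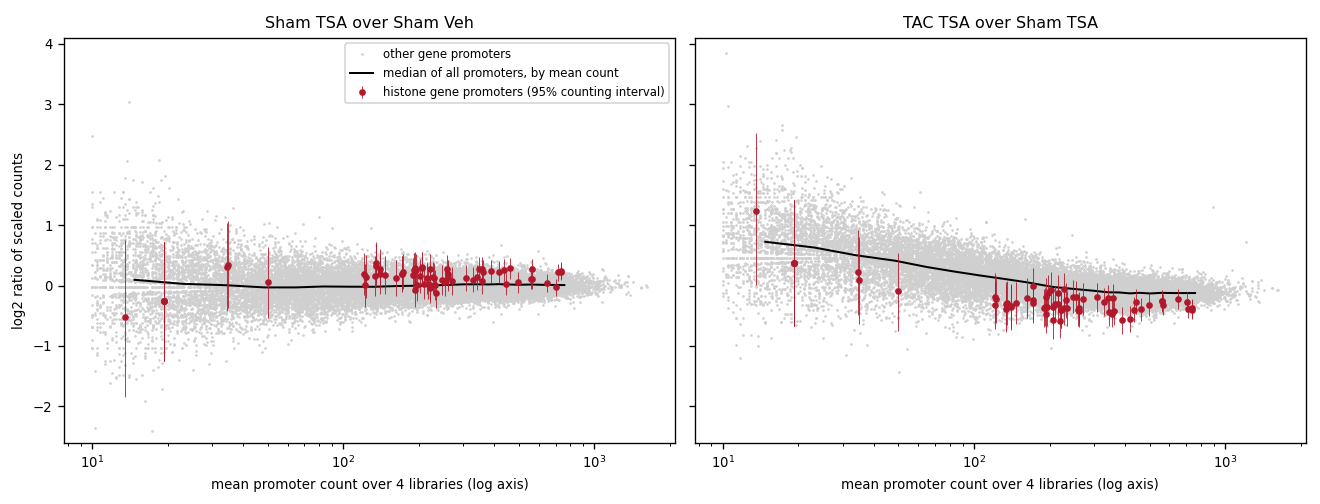
Log2 ratio of scaled counts against mean promoter count (log axis) for all genes (grey) and the 67 histone genes (red, with 95% counting intervals), in Sham TSA over Sham Veh and TAC TSA over Sham TSA. The black line is the median of all promoters in 20 bins of mean count; most histone genes lie above it on the left (median 0.15) and below it on the right (median -0.29).

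Across the 4 libraries, 54 of the 67 members (80.6%) had their highest level in Sham TSA, against 25.7% of all genes. The lowest level was in TAC TSA at 38 members (56.7%), against 33.4% of all genes, and in TAC Veh at 19 (28.4%), against 23.3%. The 4 pairwise comparisons share libraries, so the ratios over Sham Veh and those against Sham TSA are not separate evidence. Both TAC TSA over Sham TSA and Sham TSA over Sham Veh rest on the Sham TSA library. No library can be left out of either without ending the comparison.

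The effect of surgery without TSA and that with TSA share no library, and their difference was -0.18 in the median member (-0.01 in all genes), lower with TSA. Its counting interval lay below 0 at 9 members and above 0 at 0, against 9.14% and 7.08% of all genes. Of these 9, 5 were in Hist2: H2ac20, H2ac21, H2bc21, H3c13 and H2bc18. Neighbours among these may share reads, so they are not 5 independent measurements. H2ac20, H2ac21 and H2bc21 had 786, 759 and 779 reads in Sham Veh, and H3c13 and H2bc18 start 1046 bases apart. H2bc18 had the lowest difference, -0.55 (-0.85 to -0.25), followed by H3c13 at -0.51 (-0.80 to -0.22). At both genes the Sham TSA library was highest and the TAC TSA library lowest. The difference has no test with 1 library per group.

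**Figure D5:**
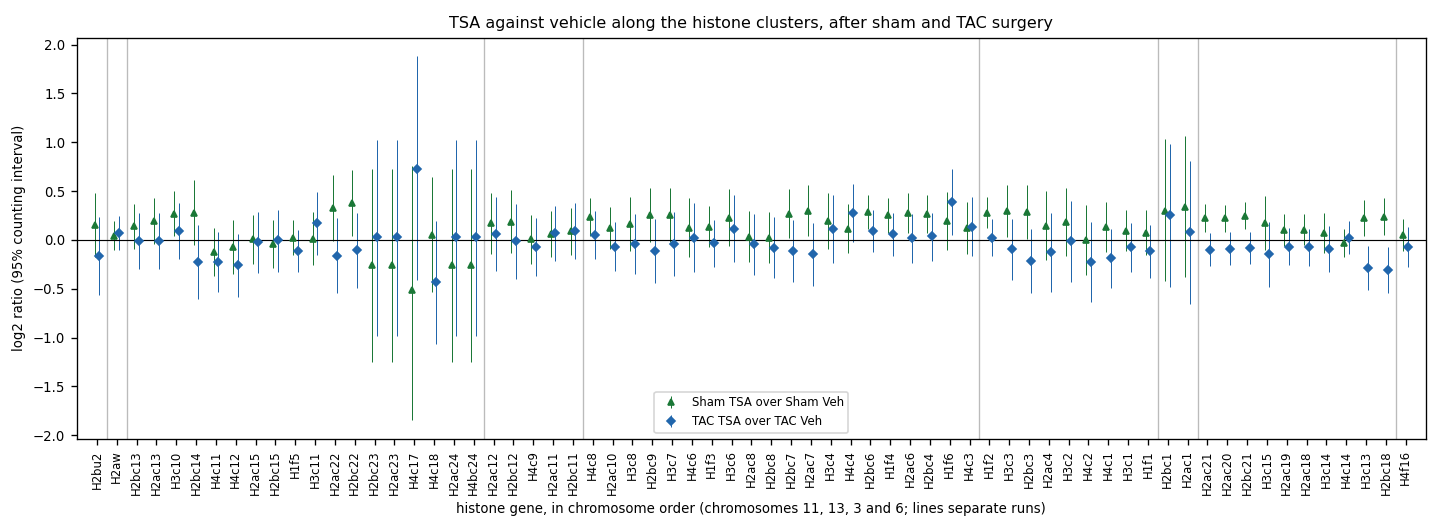
Log2 ratio of TSA over vehicle at each of the 67 histone genes in chromosome order, after sham surgery (green triangles) and after TAC (blue diamonds), with 95% counting intervals; vertical lines separate runs of neighbouring members. In the Hist2 run near the right end the triangles lie above the diamonds at 9 of 10 genes, and the widest gaps are at H3c13 (0.23 and -0.28) and H2bc18 (0.24 and -0.31).

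The members form 9 runs without another listed gene between them, of up to 20 genes. In the longest run, in Hist1 from H4c8 to H4c3, all 20 members were below 0 in TAC TSA over Sham TSA (median -0.30) and all 20 above 0 in Sham TSA over Sham Veh (median 0.21). The 9-member Hist1 run from H1f2 to H1f1 had medians of -0.32 and 0.15, with 9 of 9 on the same side in both. The 18-member run from H2bc13 to H4bc24, which holds the repeated stretch, was mixed, with 13 below 0 in the first comparison and 10 above 0 in the second.

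The additive model of surgery and drug over all 4 libraries gave no call among the members. For surgery the members' median log2 change was -0.20, beside -0.01 for all genes, with 58 of 67 below 0. The test called 0 members higher and 0 lower (edgeR quasi-likelihood test, Benjamini-Hochberg adjustment over all genes, threshold 0.05), against 0.0131% and 0.0219% of all genes. At an unadjusted p under 0.05, 0 members were higher and 22 lower, against 5.22% and 4.1% of all genes. DESeq2 and limma-voom also called 0 members, with 0 and 22 at the unadjusted threshold, all 22 lower. Of all genes, 0.14% were higher and 0.0657% lower at that threshold by DESeq2, and 5.29% and 4.1% by limma-voom. The lowest adjusted p was 0.233, for H4c14, whose log2 change was -0.30 ± 0.09 (SE) and which was lower in both TAC libraries than in both sham libraries.

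For the drug, the members' median change was 0.07, beside 0.003 for all genes. The edgeR test called 0 members in either direction, against 0.206% of all genes higher and 0.00876% lower, and 0 members at an unadjusted p under 0.05, against 2.78% and 1.49%. DESeq2 called 0 members at either threshold, and limma-voom called 0 adjusted and 1, higher, unadjusted. At the unadjusted threshold 0.254% of all genes were higher and 0.0131% lower by DESeq2, and 2.75% and 1.44% by limma-voom. The model has 1 residual degree of freedom, which is the surgery by drug difference itself. The spread was shared across genes instead of being estimated for each gene alone.

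Genes that act on histone genes or histones had smaller median ratios than the members in most comparisons. The 25 factors of histone gene transcription and 3′ end formation had a median log2 ratio of 0.0048 for Sham TSA over Sham Veh. It was 0.01 for TAC Veh over Sham Veh, -0.08 for TAC TSA over TAC Veh and -0.09 for TAC TSA over Sham TSA. In none of these comparisons was any of the 25 apart (0 of 25). Cpsf2, a subunit of the 3′ end cleavage complex and the highest of them, had 768, 750.5, 713 and 667.5 scaled counts in the order Sham Veh, Sham TSA, TAC Veh, TAC TSA. Cstf2, another 3′ end factor and the lowest, had 173, 157, 183 and 151. TAC TSA was the lowest library at both, and the highest was Sham Veh at Cpsf2 and TAC Veh at Cstf2.

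The 19 histone chaperones, which carry histones to DNA, had medians of 0.04, -0.0013, -0.09 and -0.10 in the same 4 comparisons, and 0 of 19 were apart. Daxx, a chaperone of the replacement histone H3.3 and the highest of them, had 794, 670.5, 699 and 696 scaled counts, with Sham TSA its lowest library, and its partner Atrx, the lowest, had 236, 227, 211 and 200. The 11 replacement histones had 0.01, -0.02, -0.07 and -0.05, and 0 of 11 were apart. Among them H1f0, the linker histone of resting cells, had 652, 637, 654 and 612 scaled counts, and H1f10 had 203, 164, 200 and 206, with Sham TSA its lowest library. The 23 S phase and mitosis genes had medians of 0.02, 0.08, -0.19 and -0.18, and 0 of 23 were apart. In TAC TSA over Sham TSA 22 of these 23 were below 0, beside 60 of 67 histone genes and 11877 of all 22835 genes. In Sham TSA over Sham Veh 13 of 23 were above 0, beside 58 of 67 histone genes and 11830 of all genes. In TAC TSA over TAC Veh 21 of 23 were below 0, beside 41 of 67 histone genes. In TAC Veh over Sham Veh 13 of 23 were above 0, beside 16 of 67. The S phase and mitosis genes had a median surgery by drug difference of -0.24, beside -0.18 for the histone genes. Mcm4, a subunit of the replicative helicase and the highest of the list, had 548, 561, 520 and 487, and Pola1, the catalytic subunit of DNA polymerase alpha and the lowest, had 162, 155.5, 157 and 150. Whether the lists differ from the members was not tested.

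Other genes inside the histone clusters were mostly low-count promoters. The 52 tested non-histone genes between members, many of them vomeronasal receptors, had a median of 0.56 in TAC TSA over Sham TSA. The 1278 tested receptor promoters of the genome had 0.67 there. Of the 52, 8 were apart and higher, against 7.2% of all genes. The 12 of these 52 with at least 50 mean counts had a median of 0.07, with 8 above 0 and 4 below. In Sham TSA over Sham Veh the 52 had a median of 0.08. The 39 tested genes on either side of the clusters had medians of -0.05 for TAC TSA over Sham TSA and 0.05 for Sham TSA over Sham Veh. Of these 39, 2 and 1 were apart and higher, against 7.2% and 0.582% of all genes.

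Markers of the cell types of the heart moved in these libraries too, and in whole tissue fewer cells of a type and less acetylation per cell cannot be told apart. The 9 leukocyte markers tested of 10 listed summed to 1400 (Veh) and 1676 (TSA) scaled counts after sham surgery and 1569 (Veh) and 1283 (TSA) after TAC. Sham TSA was thus highest and TAC TSA lowest. Of the 67 histone genes, 54 were highest in Sham TSA and 38 lowest in TAC TSA, not always the same genes. In TAC Veh over Sham Veh the leukocyte markers had a median log2 ratio of 0.28, with 7 of 9 above 0. The histone genes had -0.08 there, with 51 of 67 below 0. The leukocyte markers' median log2 ratios were 0.38 for Sham TSA over Sham Veh and -0.38 for TAC TSA over Sham TSA, each larger in size than the members'. In the first, 1 was apart and higher (Ptprc, the common leukocyte antigen, at 0.64), and in the second 2 were apart and lower (Ptprc at -0.78 and C1qb, a complement subunit made by macrophages, at -1.04). Itgam, an integrin of myeloid cells, was apart and higher in TAC Veh over Sham Veh, at 0.595. The lowest count of a leukocyte marker in any library was 50, and none was at 0. The 10 cardiomyocyte markers summed to 3798, 4438, 2556 and 4365, with TAC Veh lowest. Of them 6 were apart and lower in TAC Veh over Sham Veh, 9 apart and higher in TAC TSA over TAC Veh and 0 apart in TAC TSA over Sham TSA, where their median was -0.01. Actc1, cardiac actin, had the largest of these ratios, at 1.15 in TAC TSA over TAC Veh. Myh6, the adult myosin heavy chain, had 508, 598, 283 and 614 scaled counts and passed the additive test for the drug (log2 change 0.63, edgeR adjusted p = 1.2e-05, higher in both TSA libraries). The 10 fibroblast markers summed to 1973, 2055, 2448 and 2051, with TAC Veh highest and Postn and Mfap5, genes of the extracellular matrix, apart and higher there than in Sham Veh. The 9 endothelial markers summed to 4964, 4812, 4456 and 4581. No marker of these lists was at 0 in any library. The part of cell composition in the values of the histone genes was not tested.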

How the data were processed

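Chromatin immunoprecipitation reads for acetylated histone H3 were counted by the authors per promoter of 31594 RefSeq transcripts. The deposited values are raw counts, whole numbers that were not normalised, per the file headers and the values. BWA (version 0.5.9), MACS (1.4.1) and build mm9 appear in the submitters' processing notes. What each did, the promoter window, strand, and how duplicate or multiply mapped reads were handled is not given in the sources used here. Tissue was fixed in 1% formaldehyde for 10 minutes and fragments near 250 bp went through 15 cycles of PCR, per the labels' protocols. Totals over all IDs ran from 6842296 (TAC TSA) to 9905553 (Sham TSA) counts. The 6 deposited region lists name no gene and were not used here.

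IDs were matched to symbols of GRCm38.p6 (31115 of 31594, or 98.5%; the 479 others held 1.11% of counts and were left out), with the ID of highest mean count kept per gene. Libraries were scaled by TMM (edgeR 4.0.16, R 4.3.3). With 1 library per group, pairwise log2 ratios carry exact conditional (Clopper-Pearson) 95% intervals and no test. The additive model used edgeR's quasi-likelihood test, with DESeq2 1.42.0 and limma-voom (limma 3.58.1) as alternatives, and a minimum mean count of 10. The fit and the ratio rule were tested on simulated data. Alternatives covered scaling, count filters, choice of ID, fold, and members that share reads. Other steps used Python 3.11.15, numpy 2.4.6, pandas 2.3.3, scipy 1.17.1, statsmodels 0.14.6, Biopython 1.88 and matplotlib 3.10.9.

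Members and gene lists were chosen with earlier results of these data known. Values in every library are given for the highest and lowest member of each class and for members apart. They are also given for the 3 highest and 3 lowest ratios of each comparison among members of at least 50 mean counts. Members with identical counts are covered, but only some of those with near-identical promoters. Of the related gene lists, the highest and lowest genes were named. Marker lists and genes near the clusters are given by sums and counts, with only some of their apart genes named, fewer than the rule allows. H2bc21, H1f3 and H4c6 were named after their values were seen.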

Additional observations from a re-analysis of the deposited data

Results flagged for a closer look

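At 2 neighbouring genes of Hist2, TSA went with opposite differences after sham surgery and after TAC, each with a counting interval that leaves out 0. At H3c13 the log2 ratio of TSA over vehicle was 0.23 after sham surgery and -0.28 after TAC. At H2bc18 it was 0.24 and -0.31. The difference between the surgeries was not tested, since each group is 1 library. How many of all genes meet this rule was not counted. For the surgery by drug difference alone, 9.14% of all genes had a counting interval below 0. The starts of the 2 genes are 1046 bases apart, so they may share reads and are not independent.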

How the results depend on the processing

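Under DESeq2 size factors, no count filter and members found by current symbol only, the medians and the counts of members apart in all 4 pairwise comparisons kept their direction and size. A 2-fold rule does not touch the medians and cannot add calls, and H4c17 stayed the only member apart under it. Scaling on total counts gave medians of -0.0004 in TAC TSA over TAC Veh and -0.22 in TAC TSA over Sham TSA. A loess curve gave -0.12 in TAC Veh over Sham Veh, 1 member apart and lower in TAC TSA over TAC Veh (H4c18) and 0 apart and higher in TAC TSA over Sham TSA. Scaling on receptor promoters, which puts the median of all genes at -0.245, -0.383, -0.61 and -0.025, gave member medians of -0.33 in TAC Veh over Sham Veh (2 apart and lower, against 3.89% of all genes), -0.42 in TAC TSA over TAC Veh (8 lower, against 14.4%), -0.89 in TAC TSA over Sham TSA (60 lower, against 52.6%, and 0 higher) and 0.11 in Sham TSA over Sham Veh. This scaling shifts every gene alike and cannot change the members' medians relative to all genes. Of 92 ratios of named members, 42 moved beyond their interval under receptor scaling and 0 under the other 3 scalings. At 50 mean counts or more, 60 members had a median of -0.26 in TAC TSA over Sham TSA and 0 were apart and higher. With the RefSeq ID of lowest mean count, 1 member (H2bc7) was apart and lower there. With 1 member per head-to-head or near-identical set (50 members, some of which may still share reads), the median of TAC Veh over Sham Veh was -0.12 and 0 were apart and higher in TAC TSA over Sham TSA. With 1 member per run (9 members, chosen after seeing the data), the former was -0.14, the latter 0, and the median of TAC TSA over TAC Veh turned to 0.025. The causes were not tested. The additive model called 0 members under every tool, scaling, filter and ID tried. No paired analysis was possible because each group is 1 library and the labels carry no replicate numbers. TAC TSA was the shallowest library, and at the 7 members under 50 mean counts differences of 1.5-fold were not detectable at this depth.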
